A study of Drosophila melanogaster with 12 samples.

Results

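The DM297, mdg1, blood and copia elements are 4 families of long terminal repeat (LTR) retrotransposons of Drosophila, known for raised copy number in cultured fly cells. They were chosen by name, as the rows of type LTR retrotransposon whose names start with DM297, MDG1, BLOOD or COPIA_DM. This gave 8 rows, an internal (_I) and a terminal (_LTR) row for each family, of 203 repeat rows in the H3K9me3 table and 199 in the H3K36me3 table. One of the 8, MDG1_LTR, met the naming rule but was not in the list of 7 names that came with it. The tables hold no copy number, so the amplification itself was not measured here.

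The series profiled 2 histone marks by chromatin immunoprecipitation and sequencing (ChIP-seq) in S2 cells, a line of embryonic origin grown in Schneider medium with serum. The groups are KDM4A RNAi cells and GFP RNAi cells. Cells of both groups received double-stranded RNA for 5 days with the same transfection reagent, against KDM4A in one and against GFP, a jellyfish sequence used as control, in the other. The labels list 12 libraries, 2 per RNAi treatment for H3K9me3, for H3K36me3 and for input, and nothing in them says whether the 2 came from separate cultures. The deposited values are 1 linear mean enrichment ratio per row and treatment, so no value below has a standard deviation, no difference has a replicate check or a test, and the depth is unknown. The level of KDM4A was not measured in these tables.

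An LTR retrotransposon carries identical repeats at both ends, which hold the promoter and the signals for RNA ending, around an internal part that encodes the Gag and Pol proteins. It moves through an RNA that is copied into DNA, and recombination between its ends can leave a terminal repeat standing alone. The DM297 element belongs to the gypsy superfamily and is closely related to DM176. Elements mdg1 and blood belong to the same superfamily and are related to DM412 and Stalker, while copia is the founding member of the separate Ty1/copia superfamily. H3K9me3 marks silent heterochromatin and H3K36me3 the bodies of transcribed genes. KDM4A is a Jumonji-domain demethylase that removes methyl groups from histone H3 and associates with the heterochromatin protein HP1a. Every value is an average over all copies of a row in all cells, so a change at some copies and a smaller change at all copies cannot be told apart.

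All 4 families were poor in H3K9me3 in both treatments. The median of the 8 rows was 0.693 in KDM4A RNAi cells and 0.821 in GFP RNAi cells, against medians over all 203 rows of 2.37 in KDM4A RNAi cells and 2.32 in GFP RNAi cells, so the typical repeat had 3.43 times the members' level in KDM4A RNAi cells and 2.83 times in GFP RNAi cells. Enrichment was under 1 at 7 of the 8 rows in KDM4A RNAi cells and at 6 of 8 in GFP RNAi cells, against 32 of all 203 rows in KDM4A RNAi cells and 31 in GFP RNAi cells. Among the 122 LTR retrotransposon rows of this table, 7 members were among the 20 lowest in KDM4A RNAi cells, with COPIA_DM_LTR at rank 21 from the lowest, and all 8 were among the 20 lowest in GFP RNAi cells.

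The DM297 element had the least H3K9me3 of the 4 families. Its internal row DM297_I was at 0.573 in KDM4A RNAi cells and 0.661 in GFP RNAi cells, rank 3 and rank 4 from the lowest among LTR rows. Its terminal row DM297_LTR was at 0.651 in KDM4A RNAi cells and 0.682 in GFP RNAi cells. Both parts of DM297 were thus below 1 and lower after KDM4A RNAi, the internal part by 13.3% and the terminal part by 4.55%.

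The mdg1 element was lower after KDM4A RNAi in both parts. MDG1_I had 0.623 in KDM4A RNAi cells, against 0.759 in GFP RNAi cells, a decrease of 17.9%. MDG1_LTR had 0.915 in KDM4A RNAi cells, against 1.05 in GFP RNAi cells, 12.5% lower. Its log2 ratio, of the KDM4A RNAi to the GFP RNAi mean, of -0.19 was the most negative of the 4 terminal rows, and the mean log2 ratio over both parts of mdg1, -0.24, was the most negative of the 4 families.

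The blood element had the largest relative H3K9me3 difference of the 8 rows, at its internal part. BLOOD_I was at 0.715 in KDM4A RNAi cells and 0.882 in GFP RNAi cells, which is 18.9% lower and a log2 ratio of -0.30. Of the 122 LTR rows 3 had a more negative log2 ratio. BLOOD_LTR was at 0.670 in KDM4A RNAi cells and 0.720 in GFP RNAi cells, 6.94% lower. The 2 parts of blood differed more from each other in this mark in GFP RNAi cells than in KDM4A RNAi cells.

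Copia was the only one of the 4 families in which a row had more H3K9me3 after KDM4A RNAi. COPIA_DM_LTR was at 1.09 in KDM4A RNAi cells and 1.03 in GFP RNAi cells, the highest of the 8 rows in KDM4A RNAi cells. COPIA_DM_I was at 0.912 in KDM4A RNAi cells and 0.944 in GFP RNAi cells, 3.39% lower. The mean log2 ratio of its 2 parts was 0.02, against -0.14 for DM297 and -0.20 for blood.

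**Figure D1:**
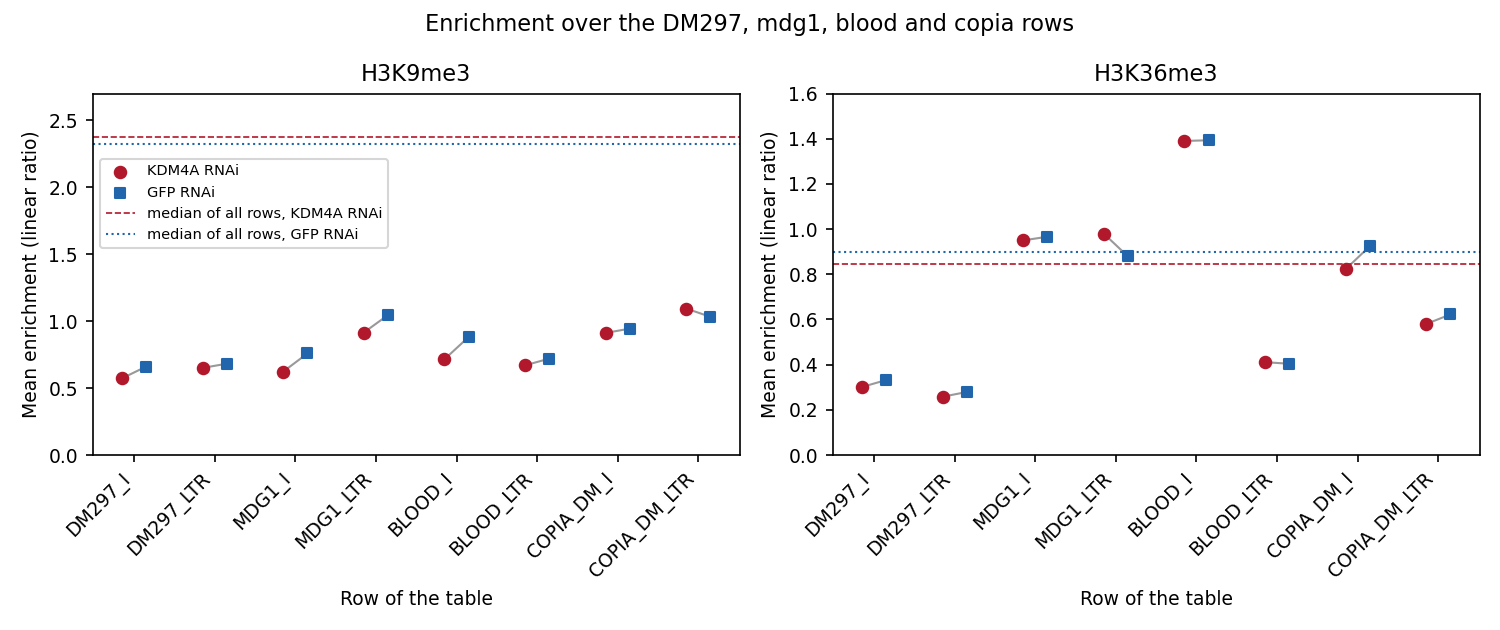
Mean enrichment (vertical axis, linear ratio) of H3K9me3 (left panel) and H3K36me3 (right panel) at each of the 8 rows, with circles for KDM4A RNAi, squares for GFP RNAi and horizontal lines at the median of all rows of the table. All 8 rows lie below the H3K9me3 medians of 2.37 for KDM4A RNAi and 2.32 for GFP RNAi, and 7 of 8 have the KDM4A RNAi circle below the GFP RNAi square, while H3K36me3 runs from 0.258 at DM297_LTR to 1.39 at BLOOD_I in KDM4A RNAi cells. Each point is 1 deposited mean with no error bar.

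The order of the 8 rows in H3K9me3 was similar in both treatments. It ran from DM297_I through MDG1_I, DM297_LTR, BLOOD_LTR, BLOOD_I, COPIA_DM_I and MDG1_LTR to COPIA_DM_LTR in KDM4A RNAi cells. In GFP RNAi cells it ran from DM297_I through DM297_LTR, BLOOD_LTR, MDG1_I, BLOOD_I, COPIA_DM_I and COPIA_DM_LTR to MDG1_LTR. The highest row was 1.91 times the lowest in KDM4A RNAi cells and 1.58 times in GFP RNAi cells. With no spread between libraries, which neighbours in these orders differ cannot be stated.

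H3K9me3 was lower after KDM4A RNAi at 7 of 8 member rows, whereas 35.5% of all rows were lower and 64.5% higher. The median log2 ratio of the members was -0.15, against 0.04 over all 203 rows. The internal rows were lower in all 4 families, with a median log2 ratio of -0.25, and the terminal rows in 3 of 4, with a median of -0.09. A decrease of at least 1.1 times was seen at 4 members, namely the internal rows of DM297, mdg1 and blood and MDG1_LTR, and at 16.3% of all rows. No member differed by 1.5 times or more in either direction, as 2.96% of all rows did. Centring, which divides each column by its median over all rows or over the other LTR rows, left the direction of each member's H3K9me3 difference as it was. It did raise the share of lower rows elsewhere. After centring over all rows, 90 of all 203 rows and 45 of the 114 other LTR rows were lower, against 72 and 35 as deposited.

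Other LTR rows with as little H3K9me3 were divided in direction. Of the 11 whose mean of both treatments lay within the members' range (0.617 to 1.06), 5 were lower and 6 higher after KDM4A RNAi, with a median log2 ratio of 0.04. All 5 lower rows fell by at least 1.1 times, against 4 of the 8 members, so decreases of this size were not particular to the members. By part, 3 of 5 internal rows were lower, with a median of -0.17, and 1 of 5 terminal rows, with a median of 0.09, so a lower internal row was not limited to the members. When the range was widened 1.5 times on each side, 13 of 24 were lower, 9 of them by at least 1.1 times, and the median was -0.01. The 5 lower rows were DM176, DM412_I, ROO_I and both rows of TIRANT, another gypsy-like family. Among the 6 higher rows were both rows of TRANSPAC, with TRANSPAC_I at 0.784 in KDM4A RNAi cells and 0.754 in GFP RNAi cells. Over the 114 other LTR rows of any level 35 were lower.

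**Figure D2:**
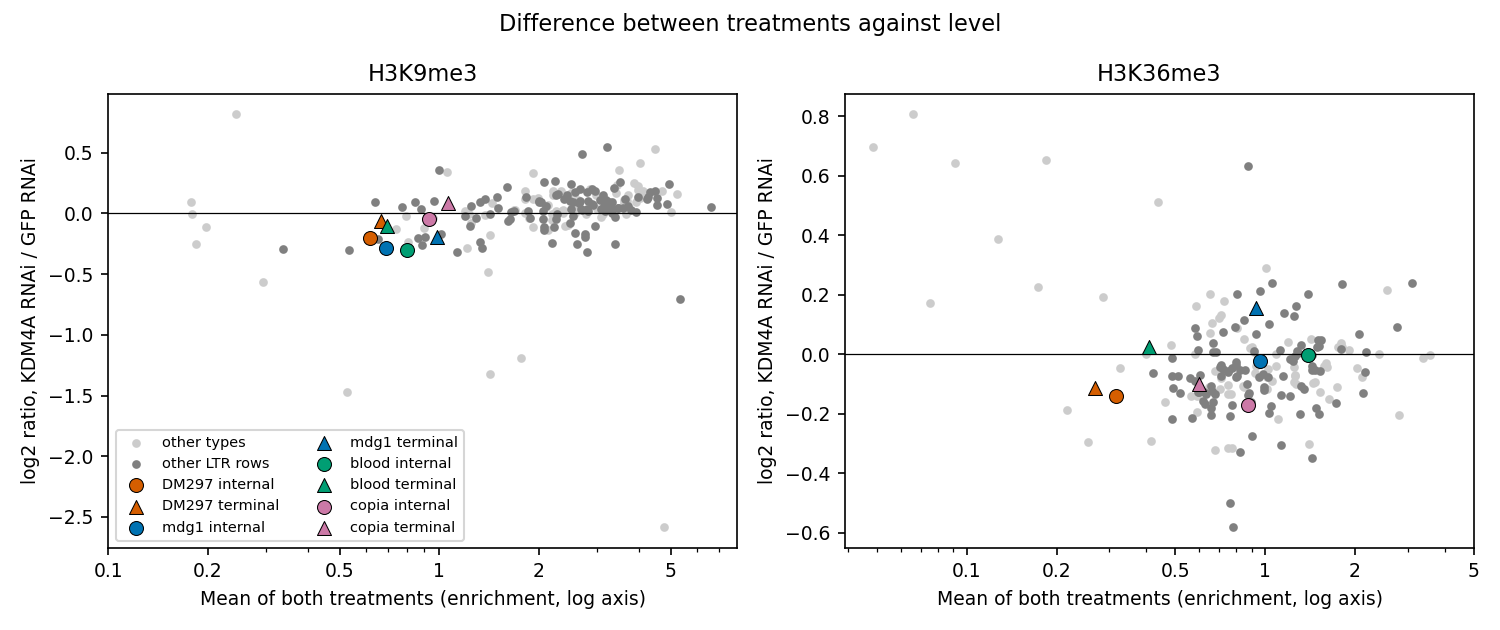
The log2 ratio of KDM4A RNAi to GFP RNAi (vertical axis) against the mean of both treatments (horizontal axis, log scale) for H3K9me3 (left panel, 203 rows) and H3K36me3 (right panel, 199 rows), with members coloured by family, circles for internal and triangles for terminal rows. In H3K9me3 the members lie between 0.617 and 1.06 on the horizontal axis with log2 ratios from -0.30 to 0.08. In H3K36me3 they lie between -0.17 and 0.16, and centring of the columns moves 2 of the 6 negative ones, BLOOD_I and MDG1_I, above 0.

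H3K36me3 spread the 8 rows much further apart than H3K9me3 did. The highest of the 8 rows, BLOOD_I, was 5.39 times the lowest, DM297_LTR, in KDM4A RNAi cells and 4.99 times in GFP RNAi cells. The median of the 8 rows was 0.701 in KDM4A RNAi cells and 0.751 in GFP RNAi cells, against medians over all 199 rows of 0.844 in KDM4A RNAi cells and 0.898 in GFP RNAi cells.

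The DM297 element had the lowest H3K36me3 of any LTR retrotransposon. DM297_LTR was at 0.258 in KDM4A RNAi cells and 0.279 in GFP RNAi cells, rank 1 from the lowest of 118 LTR rows in both. DM297_I followed at rank 2 in both, with 0.301 in KDM4A RNAi cells and 0.332 in GFP RNAi cells. The family was therefore low in both marks at both of its parts.

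The blood element had opposite positions for its 2 parts. BLOOD_I was at 1.390 in KDM4A RNAi cells and 1.393 in GFP RNAi cells, rank 98 and rank 95 of the 118 LTR rows. BLOOD_LTR was at 0.411 in KDM4A RNAi cells and 0.404 in GFP RNAi cells, rank 3 from the lowest in both. The terminal row thus had 0.296 times the H3K36me3 of the internal row in KDM4A RNAi cells and 0.290 times in GFP RNAi cells. Of the 52 LTR elements with both rows in this table, this ratio was the second lowest in KDM4A RNAi cells and the lowest in GFP RNAi cells.

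The internal rows of mdg1 and copia stood near the middle of the H3K36me3 table. MDG1_I was at 0.950 in KDM4A RNAi cells and 0.966 in GFP RNAi cells. MDG1_LTR was at 0.980 in KDM4A RNAi cells and 0.879 in GFP RNAi cells. This terminal row was 11.5% higher after KDM4A RNAi, the largest H3K36me3 increase among the 8 rows, with a log2 ratio of 0.16. COPIA_DM_I was at 0.822 in KDM4A RNAi cells and 0.924 in GFP RNAi cells, 11.0% lower, and its log2 ratio of -0.17 was the largest in size. COPIA_DM_LTR was at 0.580 in KDM4A RNAi cells and 0.622 in GFP RNAi cells, so that the terminal row of copia had 0.706 times the level of the internal row in KDM4A RNAi cells and 0.673 times in GFP RNAi cells.

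**Figure D3:**
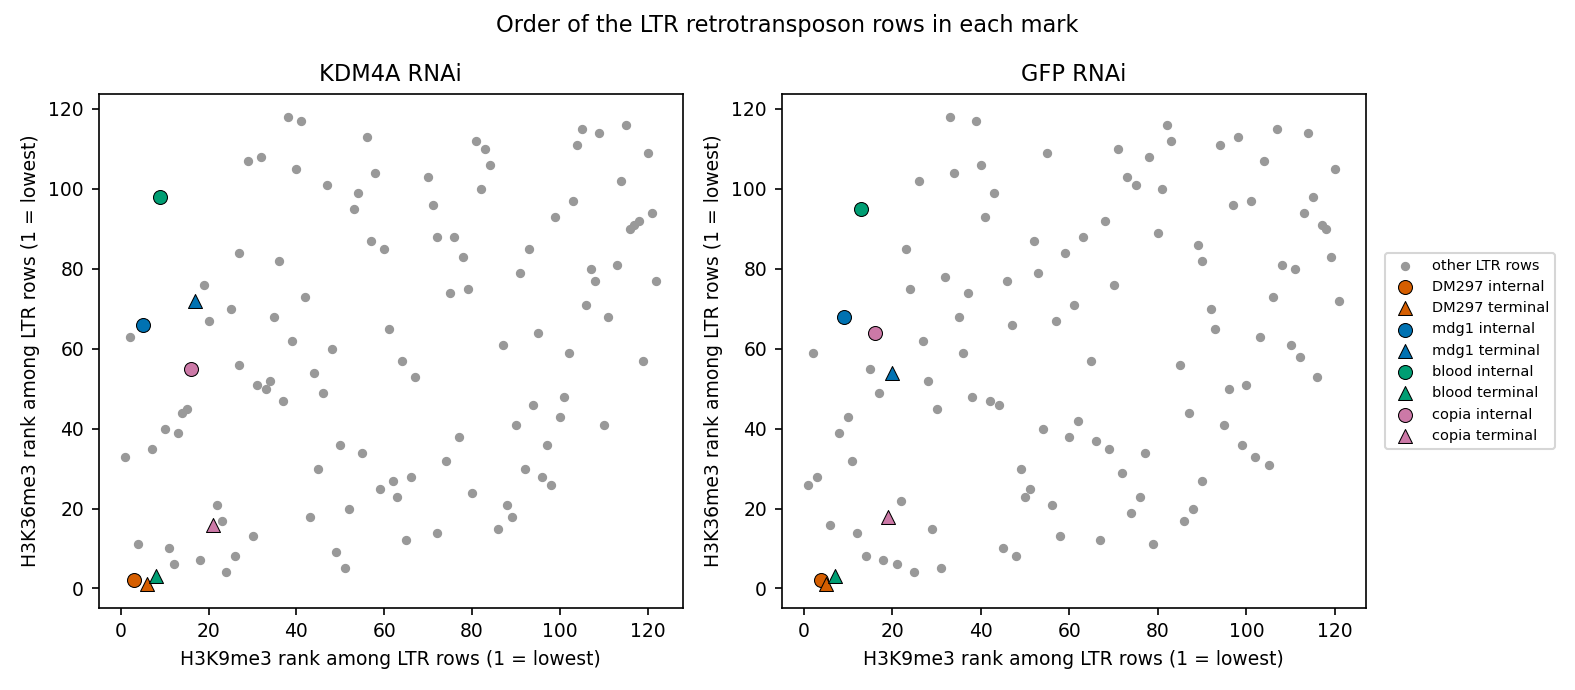
Rank of each LTR retrotransposon row in H3K36me3 (vertical axis, 1 is the lowest of 118) against its rank in H3K9me3 (horizontal axis, 1 is the lowest of 122) in KDM4A RNAi cells (left panel) and GFP RNAi cells (right panel), for rows found in both tables. The members sit at the left edge of both panels, at H3K9me3 ranks of 21 or less, but spread up the vertical axis from rank 1 at DM297_LTR to rank 98 in KDM4A RNAi cells and 95 in GFP RNAi cells at BLOOD_I.

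As deposited, H3K36me3 was lower after KDM4A RNAi at 6 of 8 members and higher at 2, MDG1_LTR and BLOOD_LTR, and after centring each column on its median 4 were lower and 4 higher. As deposited, 65.3% of all rows were lower and 33.7% higher, and after centring 75 of all 199 rows and 42 of the 110 other LTR rows were lower. The members' median log2 ratio as deposited was -0.06, against -0.05 over all 199 rows and -0.07 over the 89 other LTR rows of like level. After centring over all rows, the median over all 199 rows was itself above no difference, at 0.035, against 0.027 for the members. Both rows of DM297 and both rows of copia were lower as deposited, and their log2 ratios stayed below 0 after centring. At the terminal rows the centred values were close to no difference. Under centring over all rows and over other LTR rows they were -0.023 and -0.015 at DM297_LTR, and -0.011 and -0.003 at COPIA_DM_LTR. BLOOD_I and MDG1_I were within 0.03 log2 units of no difference and changed direction on centring. No member differed by 1.5 times or more, as 2.51% of all rows did.

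Set side by side, the 2 marks were both lower after KDM4A RNAi at 5 members as deposited, namely both rows of DM297 and the internal rows of mdg1, blood and copia. MDG1_LTR and BLOOD_LTR had lower H3K9me3 and higher H3K36me3, and COPIA_DM_LTR had higher H3K9me3 and lower H3K36me3. Of the 199 rows found in both tables, 53 were lower in both marks, 16 had lower H3K9me3 with higher H3K36me3 and 77 the reverse, and among the 110 other LTR rows these numbers were 27, 5 and 49. After centring, BLOOD_I and MDG1_I turned to higher H3K36me3, and the H3K9me3 directions of the members did not turn. The joint counts over all rows and other LTR rows are as deposited and were not recounted after centring. The centred directions of the members therefore have no share to be read beside. The labels list 1 set of input libraries per treatment for both antibodies, and whether both tables draw on them is not stated.

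The terminal row of each of the 4 families had a more positive log2 ratio than its internal row, in both marks. For H3K9me3 the terminal minus internal difference of the log2 ratios was 0.20 for blood, 0.14 for DM297, 0.13 for copia and 0.09 for mdg1. Among the 52 other LTR elements with both rows, 24 had the more positive log2 ratio at the terminal row, and the median difference was -0.03. For H3K36me3 the difference was 0.18 for mdg1, 0.07 for copia, 0.03 for DM297 and 0.03 for blood. Of 48 other elements, 25 had it above 0. So did 7 of the 9 elements with both parts on the list of related and other families set out below. These were the relatives DM412, STALKER2, STALKER4 and Copia2, and also mdg3, rooA and gypsy, which were not listed as relatives. The exceptions were DM1731, a relative, and roo, which was not. Centring cannot alter these differences, and with a pseudocount of 1 they remained above 0 in all 4 families for both marks. The median size of the difference over all LTR elements, without regard to sign, was 0.15 for H3K9me3 and 0.09 for H3K36me3, so 3 of the 4 families lay below it in each mark.

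The order of the 2 parts in level differed between the marks for DM297 and copia in both treatments, and for mdg1 in GFP RNAi cells, whereas the terminal row of blood was the lower one in both marks. In H3K9me3 the terminal row was above the internal row for mdg1, by 1.47 times in KDM4A RNAi cells and 1.38 times in GFP RNAi cells. It was also above it for copia, by 1.20 times in KDM4A RNAi cells and 1.09 times in GFP RNAi cells, and for DM297, by 1.14 times in KDM4A RNAi cells and 1.03 times in GFP RNAi cells. For blood it was below, at 0.937 times the internal row in KDM4A RNAi cells and 0.816 times in GFP RNAi cells. Of the 52 other elements the terminal row was below the internal one in 36 in KDM4A RNAi cells and 37 in GFP RNAi cells. Among the relatives listed below, STALKER2 and STALKER4 had the terminal row above in both treatments, and DM412 in KDM4A RNAi cells only. DM1731 and Copia2 had it below in both treatments. Of the listed families that are not relatives, mdg3 and roo had it above in both treatments, and rooA and gypsy below. In H3K36me3 the terminal row was below the internal one in 3 of the 4 families in KDM4A RNAi cells and in all 4 in GFP RNAi cells, mdg1 being the family that differed. It was below in 25 of 48 other elements in KDM4A RNAi cells and 30 of 48 in GFP RNAi cells.

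**Figure D4:**
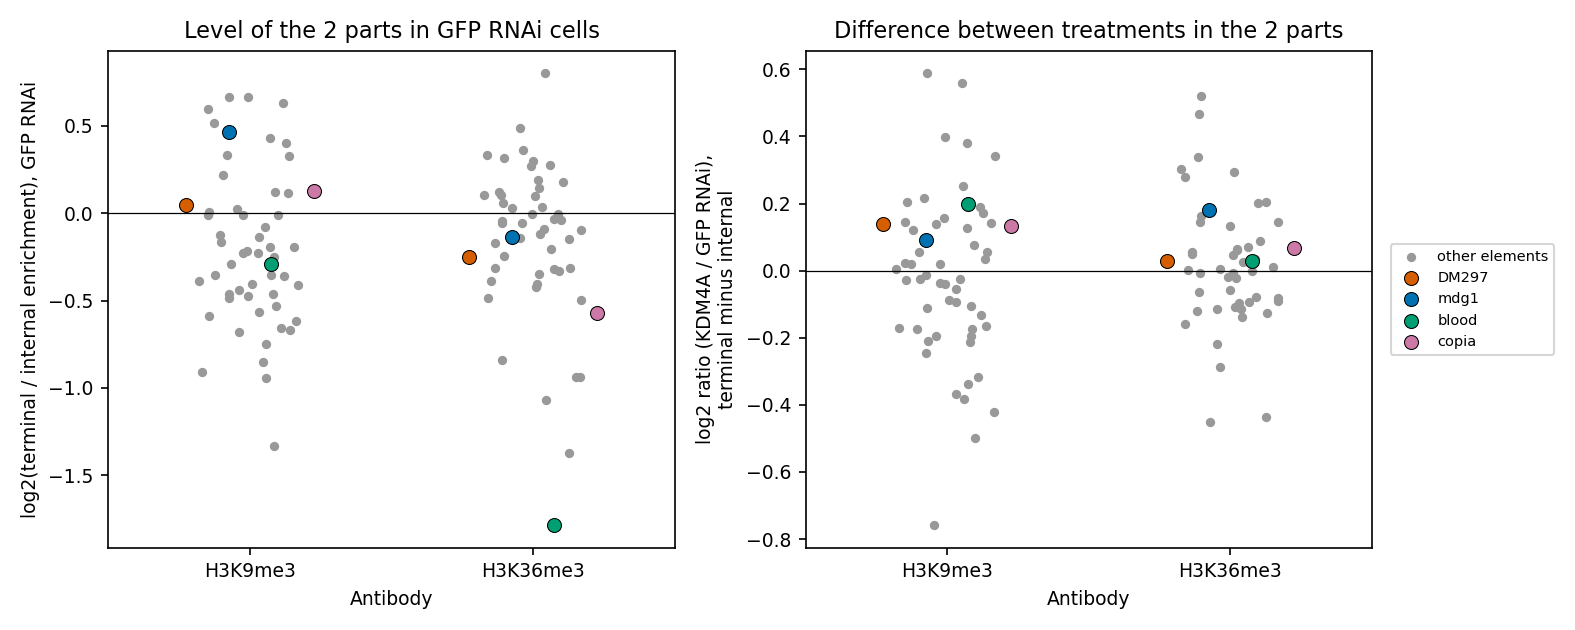
Terminal against internal row of each LTR element with both rows, for H3K9me3 (56 elements) and H3K36me3 (52 elements), with the 4 families coloured and the other elements in grey. The left panel plots log2 of the terminal over the internal enrichment in GFP RNAi cells, where blood is the lowest element in H3K36me3. The right panel plots the log2 ratio of KDM4A RNAi to GFP RNAi of the terminal row minus that of the internal row, where all 4 families lie above 0 in both marks, from 0.03 to 0.20.

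Families related to these 4, or also studied in cultured cells, showed no common direction in H3K9me3. DM176, DM412, Stalker, DM1731 and Copia2 were listed as relatives. The families mdg3, roo and gypsy were listed as others studied in cultured cells, and rooA entered with roo by its name. Of 21 rows from 9 such families, 9 were lower and 12 higher after KDM4A RNAi, with a median log2 ratio of 0.04. The DM176 element, the relative of DM297, is a single row and was at 0.810 in KDM4A RNAi cells and 0.968 in GFP RNAi cells, a log2 ratio of -0.26. Of the relatives of mdg1 and blood, DM412_I was at 0.803 in KDM4A RNAi cells and 0.923 in GFP RNAi cells, and STALKER2_I at 0.477 in KDM4A RNAi cells and 0.587 in GFP RNAi cells. Their terminal rows differed in the other direction, with DM412_LTR at 1.12 in KDM4A RNAi cells and 0.875 in GFP RNAi cells, and STALKER2_LTR at 0.998 in KDM4A RNAi cells and 0.931 in GFP RNAi cells. Other rows of these relatives did not follow that arrangement. STALKER4_I was at 1.87 in KDM4A RNAi cells and 1.85 in GFP RNAi cells, and STALKER3_LTR at 2.43 in KDM4A RNAi cells and 2.72 in GFP RNAi cells. DM412B_LTR, also a terminal row, was lower, at 1.22 in KDM4A RNAi cells and 1.44 in GFP RNAi cells.

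In H3K9me3, DM1731 and Copia2, relatives of copia, had the lower log2 ratio at the terminal row. DM1731_I was at 2.07 in KDM4A RNAi cells and 1.93 in GFP RNAi cells, and DM1731_LTR at 1.01 in KDM4A RNAi cells and 1.26 in GFP RNAi cells. COPIA2I_DM was at 3.44 in KDM4A RNAi cells and 3.23 in GFP RNAi cells, and COPIA2LTR_DM at 1.20 in KDM4A RNAi cells and 1.28 in GFP RNAi cells. Both internal rows were thus above COPIA_DM_I in level. Copia1, a copia-named element outside the list that was added after its values were seen, was higher in both parts, with Copia1-I_DM at 2.97 in KDM4A RNAi cells and 2.81 in GFP RNAi cells and Copia1-LTR_DM at 2.57 in KDM4A RNAi cells and 2.40 in GFP RNAi cells. Of the 9 elements on the list with both parts, 7 had the more positive H3K9me3 log2 ratio at the terminal row, DM1731 and Copia2 being the other 2. The 7 were the relatives DM412, STALKER2 and STALKER4, and also mdg3, roo, rooA and gypsy, which were not listed as relatives.

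In H3K36me3 the listed related and other families were lower at 16 of 21 rows as deposited and at 5 of 21 after centring over all rows. Over the whole table, 65.3% of the 199 rows were lower as deposited, and 75 of 199 after the same centring. Low H3K36me3 was shared by DM176 and DM412, with DM176 at 0.471 in KDM4A RNAi cells and 0.510 in GFP RNAi cells and DM412_I at 0.497 in KDM4A RNAi cells and 0.523 in GFP RNAi cells. It was not limited to them. COPIA2LTR_DM was lower, at 0.412 in KDM4A RNAi cells and 0.430 in GFP RNAi cells. ROO_I, at 0.474 in KDM4A RNAi cells and 0.498 in GFP RNAi cells, and GYPSY_LTR, at 0.493 in KDM4A RNAi cells and 0.540 in GFP RNAi cells, were about as low. All of these rows lay above both rows of DM297 in each treatment. STALKER2_LTR, like MDG1_LTR, was higher after KDM4A RNAi, at 1.03 in KDM4A RNAi cells and 0.888 in GFP RNAi cells. It was among 5 of the 21 rows that were higher as deposited, and ROOA_LTR rose more, with a log2 ratio of 0.23 against 0.21. Of the other terminal rows of Stalker and DM412, DM412_LTR was higher, and STALKER3_LTR, STALKER4_LTR and DM412B_LTR were lower.

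**Figure D5:**
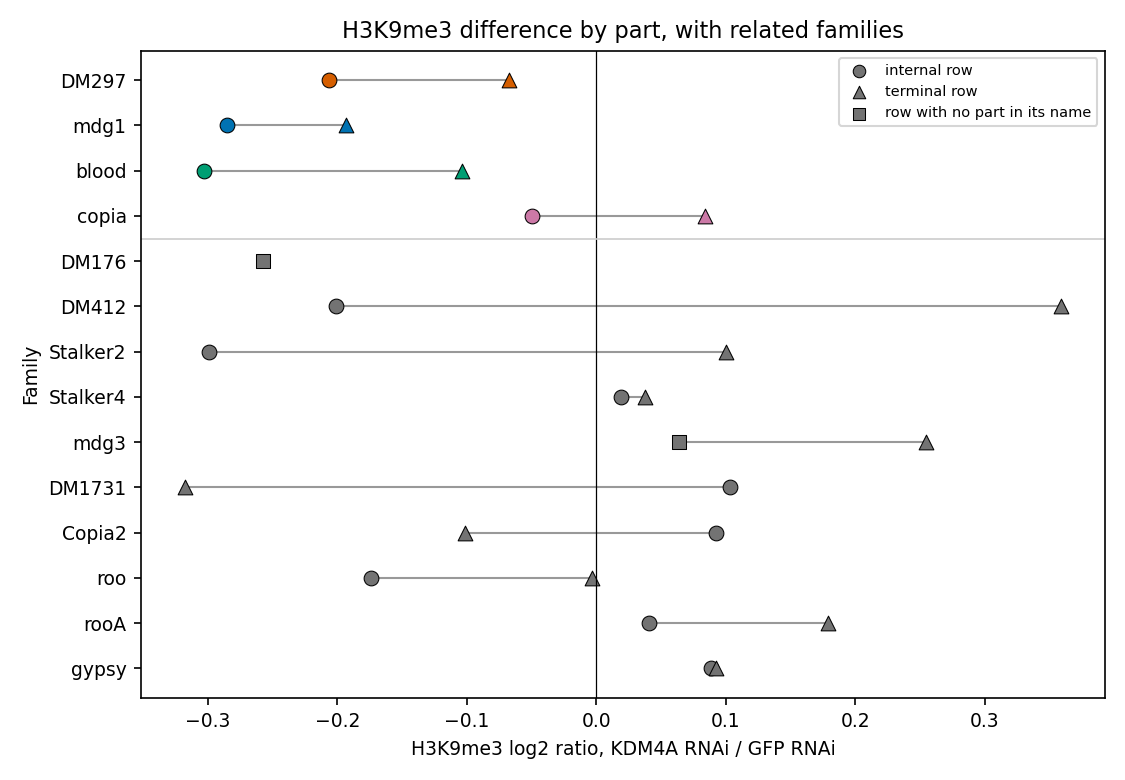
H3K9me3 log2 ratio of KDM4A RNAi to GFP RNAi (horizontal axis) for the internal row (circle) and terminal row (triangle) of the 4 families (coloured, above the grey line) and of the listed related and other families (grey), with a square for a row whose name gives no part. The internal rows of DM297, mdg1 and blood lie between -0.30 and -0.21, near DM176 and the internal rows of DM412 and Stalker2, while DM1731 and Copia2 have the terminal row on the left. DM412B_LTR and STALKER3_LTR, terminal rows with no internal row of their own, are not plotted.

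The rows outside the 4 families whose pattern lay nearest to the members' median were all LTR retrotransposons. Likeness was measured as the Euclidean distance over 4 log2 values, the 2 marks in each treatment. The nearest 5 were TRANSPAC_I at a distance of 0.22, TRANSPAC_LTR at 0.35, DIVER_LTR at 0.40, TIRANT_I at 0.40 and Gypsy1-I_DM at 0.42. All 5 lay nearer to that median than any of the 8 members, whose distances ran from 0.61 at COPIA_DM_I to 2.02 at DM297_LTR. Of these 5 rows, TIRANT_I was lower in H3K9me3 after KDM4A RNAi, at 0.844 in KDM4A RNAi cells and 0.966 in GFP RNAi cells, and the other 4 were higher.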

How the data were processed

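The authors deposited 1 table per antibody, whose values are linear enrichment ratios that are means per the file headers, 1 per row and RNAi treatment, given to 3 decimals. Chromatin was crosslinked for 10 min with 1% paraformaldehyde and precipitated with 5 µg of antibody, per the labels' protocols. Per the submitters' processing notes, the tools include Bowtie and MACS2, with no role stated. For the build, the repeat library, the handling of reads that match many copies, the denominator of the ratio, the scaling for depth and the libraries behind each mean, the sources used here give nothing. Reads shared between copies, between related families, or between the terminal repeat and its junction with the internal part could therefore be counted in either row.

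With Python 3.11.15 and pandas 2.3.3, the log2 ratio of the KDM4A RNAi to the GFP RNAi mean was computed per row without a pseudocount, and ranks within each table. The log2 ratios, the count of lower rows and the terminal minus internal differences were checked on GFP RNAi values multiplied by known changes. The other steps were not checked in this way. No test could be run on 1 mean per treatment. Counts of higher and lower rows are descriptions, and rows are not replicates. The rows named are the members, the 5 nearest rows, and a list of related families and of other families studied in cultured cells. The rows of the H3K9me3 level window are named outside that rule, after their values were seen. The members and lists were chosen with earlier results of these data known. The alternatives were 2 kinds of centring, a pseudocount of 1, single parts, left-out families, means, minimum changes of 1.1 and 1.5 times and a wider level window. Sequences of the elements were not used here.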

Additional observations from a re-analysis of the deposited data

How the results depend on the processing

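No paired analysis was possible because each treatment has a single mean per row, and for the same reason no replicate could be left out and the replicate block was not run. The members' median log2 ratio in H3K9me3 (-0.148) was -0.179 with columns centred on all rows, -0.202 with columns centred on the other LTR rows, -0.061 with a pseudocount of 1, -0.245 over internal rows, -0.085 over terminal rows and -0.140 as a mean. It was -0.148 without DM297, -0.085 without mdg1, -0.130 without blood and -0.200 without copia. In H3K36me3 the median (-0.062) reversed to 0.027 and 0.035 under the 2 kinds of centring. Under centring over all rows, the median log2 ratio of all 199 rows was itself 0.035, and that of the other LTR rows 0.029. The members' median was -0.018 with a pseudocount of 1, -0.083 over internal rows, -0.038 over terminal rows and -0.046 as a mean. It was -0.014 without DM297, -0.107 without mdg1, -0.107 without blood and -0.014 without copia. Over the 7 listed rows, an alternative chosen after seeing the data, the medians were -0.104 for H3K9me3 and -0.101 for H3K36me3. The number lower in H3K9me3 (7) was 4 among the 4 internal and 3 among the 4 terminal rows, 4 at 1.1 times or more and 0 at 1.5 times. In H3K36me3 (6) it was 4 and 2 among these rows, then 2 and 0. Of all 199 rows, 20.6% were lower by 1.1 times or more in H3K36me3, as were 21 of the 89 other LTR rows of like level. The H3K9me3 median of other LTR rows of like level (0.038) reversed to -0.012 with the wider window. Of 48 values of single members under centring or a pseudocount, 4 reversed, all in H3K36me3: BLOOD_I (0.086 and 0.095) and MDG1_I (0.065 and 0.074) under the 2 kinds of centring. Centring subtracts 1 constant from every log2 ratio of a table, so these reversals follow from that shift, and a pseudocount shrinks ratios by its construction. The cause of the other changes was not tested.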
